A study of Mus musculus with 6 samples.

Results

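Platelets release their granules through SNARE proteins, and the genes described here encode 10 parts of that machinery: the vesicle SNAREs Vamp8, Vamp3, Vamp2 and Vamp7, the target membrane SNAREs Stx11, Stx4a and Snap23, and the regulators Stxbp2, Stxbp5 and Unc13d. They were chosen by name from knowledge of platelet secretion, with earlier results of these data known. Each was found on 1 probe that names no other gene, so all 10 listed genes were measured among 30142 genes on the array. RNA of mouse platelets from blood and of bone marrow cells labelled megakaryocyte progenitors was hybridised to 6 Clariom D Mouse arrays, 1 for each of 6 groups. The groups were platelets with CTC41.5G-EVs, platelets with CTC41-EVs, platelets with PBS, progenitors with CTC41.5G-EVs, progenitors with CTC41-EVs and progenitors with PBS. EVs commonly stands for extracellular vesicles, and PBS is the buffer control. The RNA on an array came from a pool of mice, which leaves the spread between mice unmeasured, and strain, age, genotype, dose and time are not stated in the labels.

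In secretion, a vesicle SNARE on a granule winds together with a syntaxin and a SNAP protein of the plasma membrane, and this helical bundle draws the membranes into fusion. Sec1/Munc18 proteins such as Stxbp2 hold and guide the syntaxin, Munc13 proteins such as Unc13d tether the granule, and tomosyns such as Stxbp5 bind target SNAREs through a vesicle SNARE-like segment. In mouse platelets VAMP8 is known as the main vesicle SNARE of granule release, with VAMP2 and VAMP3 able to serve beside it. In humans, loss of STX11, STXBP2 or UNC13D causes familial haemophagocytic lymphohistiocytosis, a failure of cytotoxic granule release, and platelets of such patients secrete poorly. Leukocytes thus use these genes as well as platelets.

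The platelet label was checked first. All 10 measured markers of platelets and megakaryocytes were called higher in platelets, and the mean log2 signal of this list was 10.23 to 10.68 on the platelet arrays and 5.40 to 5.61 on the progenitor arrays. On the progenitor arrays 8 of these 10 markers lay above a floor of 4.23, the median over all probes, and Clec1b and P2ry12 lay under it. Markers of neutrophil precursors moved the other way: 10 of 12 were called lower in platelets, and the list averaged 4.97 to 5.26 on the platelet arrays and 6.80 to 7.02 on the progenitor arrays. The granule gene Ngp averaged 4.89 in platelets and 8.76 in the cells labelled progenitors. Elane and Ctsg were the 2 neutrophil markers under the floor in platelets. Of 10 measured basophil and mast cell markers, 6 were tested and 4 called lower (list means 4.17 to 4.27 in platelets and 5.05 to 5.23 in progenitors). Of 10 measured B cell markers, 8 were tested and 4 also called lower (list means 4.53 to 4.55 and 5.13 to 5.22). Of 10 measured erythroid markers, 8 were tested and 4 called higher, led by Alas2 (list means 5.72 to 5.86 in platelets and 4.77 to 4.87 in progenitors). Of 9 tested T and NK cell markers (11 measured), Gzma was called higher. List means were 4.58 to 4.67 in platelets and 4.81 to 4.93 in progenitors. Of 10 tested monocyte and macrophage markers (11 measured), Lyz2 and Ly6c2 were called higher and 0 lower. Lyz2 averaged 9.91 in platelets and 6.97 in progenitors, and Ly6c2 averaged 5.72 and 4.78. The whole list averaged 5.35 to 5.44 on the platelet arrays and 5.11 to 5.17 on the progenitor arrays. The median difference of the tested ones was -0.06. Of 7 tested endothelial markers (8 measured), Pecam1 and Esam were called higher and the remaining 5 were not. Pecam1 averaged 7.87 in platelets and 5.11 in progenitors, and Esam averaged 6.91 and 4.89. The whole endothelial list averaged 5.43 to 5.49 on the platelet arrays and 4.72 to 4.84 on the progenitor arrays. Over all tested genes, 16.2% were called higher and 25.7% lower, by the rule given below. In bulk samples, fewer cells of a type and less RNA per cell cannot be told apart, and the part of other cells in the results below was not tested.

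The promoters of the 3 genes with the largest called differences are shown beside that of Vamp8, the vesicle SNARE best known in platelets. They are RefSeq windows of build GRCm38.p6, each 300 bases long and read 5′ to 3′ along the gene. Each runs from 250 before to 50 after a start that is not always the outer end of the annotated gene. On the minus strand Stx11 begins at 12964498 and Stxbp5 at 9901287, so their windows lie mostly within the gene. CG dinucleotides are in capitals.
Snap23 (chr2:120567421-120567720, plus strand): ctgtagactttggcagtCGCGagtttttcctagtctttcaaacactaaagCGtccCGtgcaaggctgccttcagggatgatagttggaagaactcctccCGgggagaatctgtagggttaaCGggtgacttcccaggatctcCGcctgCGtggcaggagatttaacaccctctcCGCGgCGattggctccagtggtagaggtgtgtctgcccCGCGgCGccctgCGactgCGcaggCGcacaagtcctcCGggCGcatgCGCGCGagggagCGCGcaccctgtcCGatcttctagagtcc
Stx11 (chr10:12964210-12964509, minus strand): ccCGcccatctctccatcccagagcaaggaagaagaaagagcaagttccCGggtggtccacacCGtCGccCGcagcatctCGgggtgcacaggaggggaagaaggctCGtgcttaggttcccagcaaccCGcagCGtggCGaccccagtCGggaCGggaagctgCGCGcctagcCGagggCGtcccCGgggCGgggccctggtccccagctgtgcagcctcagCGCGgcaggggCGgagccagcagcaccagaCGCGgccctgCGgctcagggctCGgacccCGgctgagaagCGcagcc
Stxbp5 (chr10:9900991-9901290, minus strand): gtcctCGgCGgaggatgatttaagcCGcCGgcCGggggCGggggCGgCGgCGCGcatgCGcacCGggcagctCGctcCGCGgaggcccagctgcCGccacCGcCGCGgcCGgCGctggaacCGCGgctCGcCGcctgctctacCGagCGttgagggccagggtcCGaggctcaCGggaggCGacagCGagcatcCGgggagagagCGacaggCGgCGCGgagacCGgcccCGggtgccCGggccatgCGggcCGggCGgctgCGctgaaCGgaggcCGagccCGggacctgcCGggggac
Vamp8 (chr6:72390618-72390917, minus strand): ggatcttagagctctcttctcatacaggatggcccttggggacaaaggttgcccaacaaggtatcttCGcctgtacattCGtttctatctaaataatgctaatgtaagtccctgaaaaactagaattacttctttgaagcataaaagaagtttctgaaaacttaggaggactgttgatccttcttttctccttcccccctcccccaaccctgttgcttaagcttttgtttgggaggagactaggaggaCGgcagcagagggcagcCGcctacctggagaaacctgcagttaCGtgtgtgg

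The windows differed widely in CG content. Stxbp5 held 47 CG dinucleotides, Stx11 held 27, Snap23 held 25 and Vamp8 held 5, and the median over 32851 RefSeq windows was 7. As a share of all windows, 1.44% held at least as many CG as Stxbp5, 15.5% as Stx11, 18.4% as Snap23 and 62% as Vamp8. Windows were at hand for 6 of the 10 genes, and the remaining pair, Stx4a and Stxbp2, held 23 and 22. The window of Stx4a lies wholly within the annotated gene and that of Stxbp2 mostly. On either strand the Sp1 letters GGGCGG stood in 3 of the 6 windows, those of Stxbp5, Stx11 and Stx4a, against 35.7% of all windows. The GATA core AGATAA, the ETS letters CCGGAAGT and the AP-1 and NF-E2 core TGAGTCA stood in 0 of 6, against 11.2%, 3.89% and 5.2% of all windows. With 1 motif present, no overlap between motifs arose. A match is a description of the letters and not a binding site.

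The first comparison asked how the secretion genes differed between platelets and progenitors over the 3 treatments. All 10, of which 9 were tested, were higher on each of the 3 platelet arrays than on any of the 3 progenitor arrays, a separation that 24.2% of the tested genes showed in this direction. The sizes were very unequal, with Snap23 at 20.3-fold and Vamp2 at 1.17-fold. A gene was called where the limma adjusted p did not exceed 0.05 and the difference reached 1.5-fold, and it was tested if its mean over the 6 arrays reached 4.23 on the log2 scale, the 50th percentile of all probes. By this rule 9 genes were tested, 6 were called higher (Snap23, Stx11, Stxbp5, Vamp8, Stx4a and Vamp3), 0 were called lower and 3 were not called. Over all 18875 tested genes, 16.2% were called higher and 25.7% lower. The median difference of the 10 genes was 0.66 on the log2 scale, beside -0.26 over all tested genes. With other scalings of the arrays the median of all tested genes was 0.05 (quantile normalization), 0.11 (centred on the median of all probes) or 0.45 (centred on olfactory receptor genes), so a difference is best read relative to that shift.

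**Figure D1:**
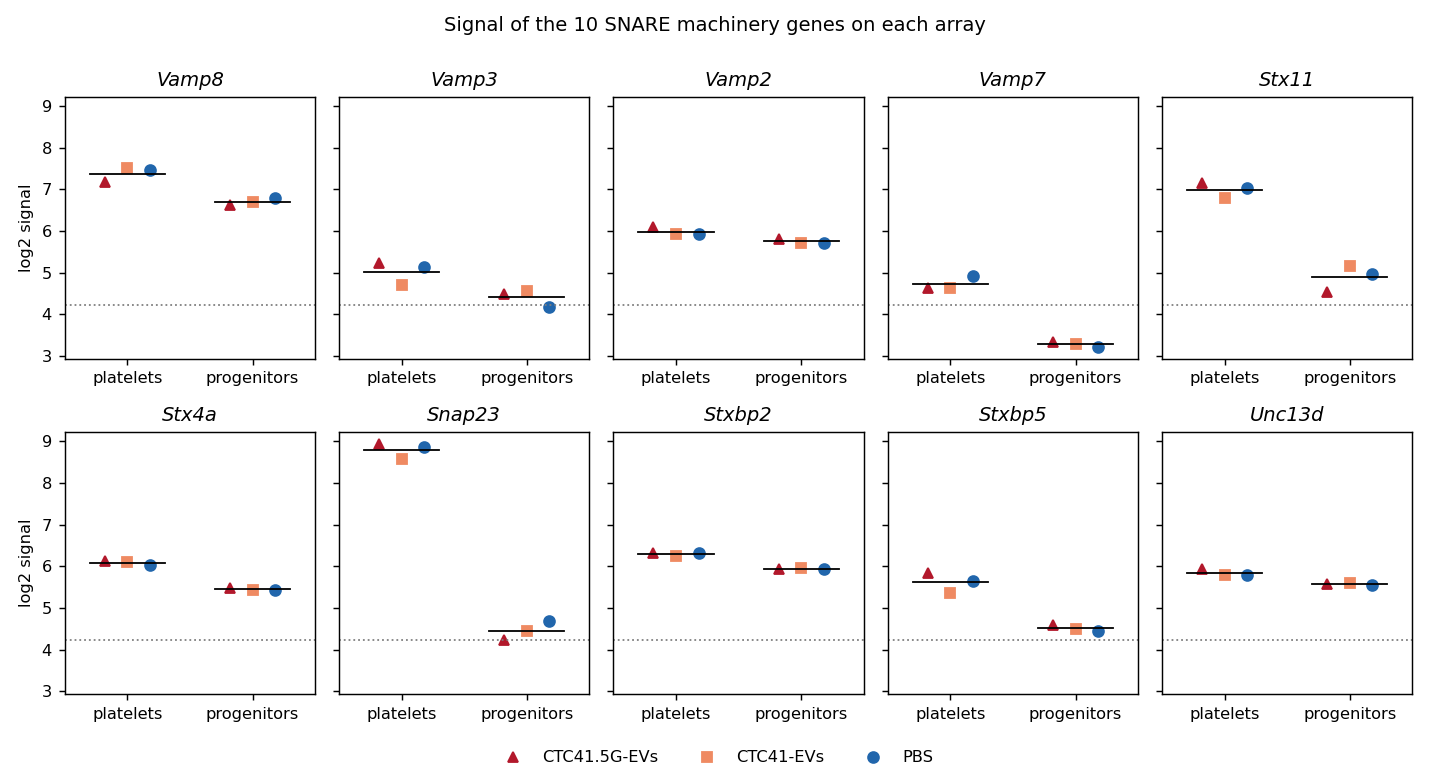
Log2 signal of each of the 10 genes on the 6 arrays, platelets left and progenitors right in each panel. Each symbol is 1 array, coloured by treatment, the bar is the mean over 3 arrays, and the dotted line is the floor of 4.23. Snap23 and Stx11 show the widest gaps, and Vamp7 lies below the floor in progenitors.

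Among the target membrane SNAREs, Snap23 stood far apart. SNAP-23 is the widely expressed relative of the neuronal SNAP-25 and supplies a pair of the helices of the fusion bundle. Its log2 signal was 8.94, 8.57 and 8.87 on the platelet arrays with CTC41.5G-EVs, CTC41-EVs and PBS, against 4.22, 4.45 and 4.69 on the progenitor arrays in the same order. The lowest platelet array thus lay 3.88 above the highest progenitor array. Snap23 averaged 8.80 ± 0.20 in platelets and 4.45 ± 0.24 in progenitors (SD, n = 3 each), a log2 difference of 4.35 with SE 0.16 (limma adjusted p = 2.13e-06). Of the 18875 tested genes, 83 had a difference at least as large, Snap23 included. The progenitor means of Snap23, Stxbp5 (4.51) and Vamp3 (4.40) lay within 0.5 above the floor, near the background of the array.

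Stx11, a syntaxin without the usual membrane anchor that is held to the membrane by lipid, came next. Its signal was 7.14, 6.78 and 7.02 on the platelet arrays with CTC41.5G-EVs, CTC41-EVs and PBS, against 4.54, 5.15 and 4.97 on the progenitor arrays. The cell types did not overlap, with a gap of 1.63. Stx11 averaged 6.98 ± 0.18 in platelets and 4.89 ± 0.31 in progenitors (SD, n = 3 each), a log2 difference of 2.10 with SE 0.18, or 4.28-fold (limma adjusted p = 5.95e-05). Stx4a, the mouse symbol of syntaxin 4, a plasma membrane syntaxin of many cells, differed far less and varied little within a cell type. It measured 6.12, 6.10 and 6.04 in platelets with CTC41.5G-EVs, CTC41-EVs and PBS, against 5.47, 5.43 and 5.44 in progenitors. The difference was 0.64 with SE 0.09, or 1.56-fold, just past the 1.5-fold line (limma adjusted p = 0.000771). The treatment-matched differences of the 2 syntaxins did not overlap, at 1.63 to 2.60 for Stx11 and 0.60 to 0.68 for Stx4a.

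Of the vesicle SNAREs, Vamp8 and Vamp3 were called, at differences under 1 on the log2 scale. Vamp8, or endobrevin, measured 7.17, 7.50 and 7.46 on the platelet arrays with CTC41.5G-EVs, CTC41-EVs and PBS, against 6.62, 6.69 and 6.79 on the progenitor arrays. All platelet arrays were higher, by a gap of 0.39. Vamp8 averaged 7.38 ± 0.18 in platelets and 6.70 ± 0.08 in progenitors (SD, n = 3 each), a log2 difference of 0.68 with SE 0.13, or 1.6-fold (limma adjusted p = 0.00307). Vamp3, or cellubrevin, measured 5.24, 4.70 and 5.13 in platelets with CTC41.5G-EVs, CTC41-EVs and PBS, against 4.49, 4.56 and 4.16 in progenitors. The platelet array with CTC41-EVs was the low one, 0.14 above the highest progenitor array. The difference of 0.62 with SE 0.15 was called (limma adjusted p = 0.00866), and the call was lost without either PBS array (0.45) or without either CTC41.5G-EVs array (0.55).

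Vamp2, or synaptobrevin 2, best known from synapses, was not called. It measured 6.10, 5.92 and 5.92 in platelets with CTC41.5G-EVs, CTC41-EVs and PBS, against 5.81, 5.71 and 5.72 in progenitors. The arrays separated by a gap of 0.11, and the difference was 0.23 with SE 0.10 (limma adjusted p = 0.0661). Vamp7, a vesicle SNARE with a long amino-terminal domain, lay under the floor on average and was not tested. It measured 4.64, 4.64 and 4.92 in platelets with CTC41.5G-EVs, CTC41-EVs and PBS, against 3.32, 3.29 and 3.22 in progenitors. Its difference was 1.46 as measured and 0.51 when the progenitor mean is raised to the floor, and without a floor limma gave an adjusted p of 7.95e-05. Vamp7-ps, an annotated pseudogene of Vamp7, had 2.80 in platelets and 2.34 in progenitors on its own probe.

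The regulators fell into a called gene and an uncalled pair. Stxbp5, or tomosyn-1, measured 5.85, 5.37 and 5.65 on the platelet arrays with CTC41.5G-EVs, CTC41-EVs and PBS, against 4.59, 4.50 and 4.45 on the progenitor arrays. The gap between the cell types was 0.78. The difference was 1.11 with SE 0.10, or 2.16-fold (limma adjusted p = 8.1e-05). Stxbp2, or Munc18-2, the partner of Stx11, measured 6.31, 6.24 and 6.33 in platelets with CTC41.5G-EVs, CTC41-EVs and PBS, against 5.93, 5.96 and 5.93 in progenitors. Its arrays varied little, and the difference of 0.35 with SE 0.11 passed the adjusted p (0.02 by limma) but not the fold. Unc13d, or Munc13-4, measured 5.93, 5.80 and 5.79 in platelets with CTC41.5G-EVs, CTC41-EVs and PBS, against 5.57, 5.60 and 5.56 in progenitors. Its difference was 0.26 with SE 0.10, again past the adjusted p (0.0413 by limma) and short of 1.5-fold. Centring the arrays on the median of all probes, or on the olfactory receptor genes, brought Stxbp2, Unc13d and Vamp2 past both lines too, which made 9 of the 9 tested genes. These scalings shift all genes, and the genes called higher in platelets then numbered 4673 and 7609, beside 3063 as deposited.

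Set in order of their differences, the 9 tested genes ran from Snap23 through Stx11, Stxbp5, Vamp8, Stx4a, Vamp3 and Stxbp2 to Unc13d and Vamp2. Vamp7 has no settled place, since its progenitor arrays lay under the floor: as measured (1.46) it would follow Stx11, and from the floor (0.51) it would follow Vamp3. The treatment-matched differences of Snap23 (4.13 to 4.73) overlapped with those of no other tested gene. The range of Stx11 (1.63 to 2.60) overlapped with no other either, while that of Stxbp5 (0.87 to 1.26) overlapped with that of Vamp3. Vamp8 (0.55 to 0.81), Stx4a (0.60 to 0.68) and Vamp3 (0.14 to 0.97) overlapped one another. Stxbp2 (0.27 to 0.40), Unc13d (0.20 to 0.35) and Vamp2 (0.20 to 0.29) overlapped too, and the wide range of Vamp3 took in all of these. Of the 3 genes whose human counterparts cause haemophagocytic lymphohistiocytosis, Stx11 had a range above those of Stxbp2 and Unc13d, a gap that was described and not tested.

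**Figure D2:**
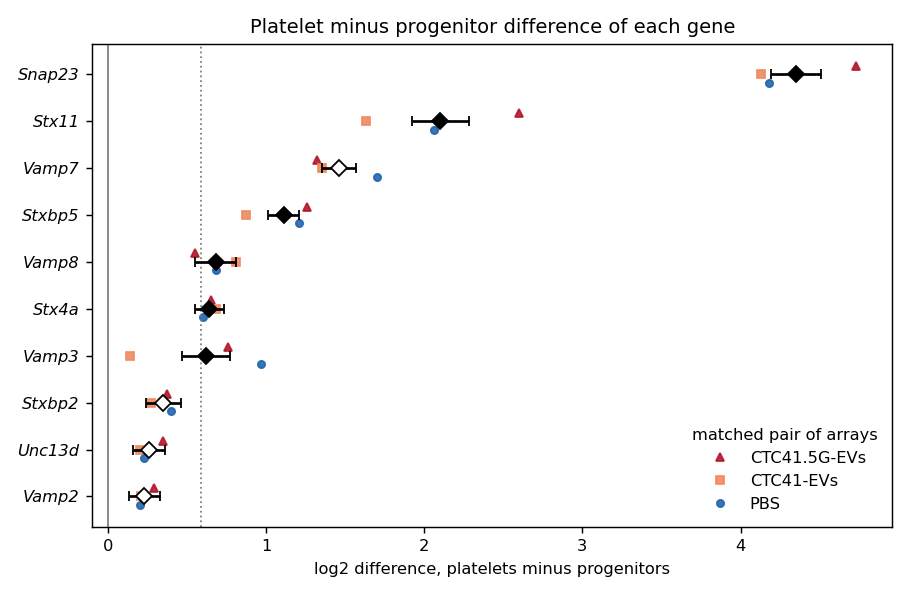
Log2 difference of each gene, platelets minus progenitors. Diamonds with bars are the model difference and its SE, filled where the gene was called and open where it was not called or, for Vamp7, not tested. Coloured symbols are the 3 treatment-matched pairs of arrays, and the dotted line marks 1.5-fold. Snap23 at 4.35 stands apart, and the CTC41-EVs pair of Vamp3 lies lowest, at 0.14.

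The next question was how the 10 genes differed with EVs inside each cell type, where each comparison was 1 array against 1 array and no test was possible. In platelets, 0 of 10 genes reached 1.5-fold in any of the 3 comparisons. Among genes with a mean of at least 4.23 on the 3 platelet arrays, 2.44% did so for CTC41-EVs against PBS, 2.12% for CTC41.5G-EVs against PBS and 3.2% for CTC41.5G-EVs against CTC41-EVs. The low array in platelets was often that with CTC41-EVs. Against PBS it was lower by a log2 difference of -0.43 for Vamp3, -0.30 for Snap23, -0.29 for Stxbp5, -0.28 for Vamp7 and -0.24 for Stx11. It was near PBS for Vamp8 (0.04), Stx4a (0.06), Vamp2 (0.00) and Unc13d (0.01), and Stxbp2 differed by -0.09.

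With CTC41.5G-EVs in platelets, Stxbp5 differed from PBS by 0.20, Vamp2 by 0.18, Unc13d by 0.13 and both Vamp3 and Stx11 by 0.12. Vamp8 differed by -0.29 and Vamp7 by -0.28. Between the EV kinds, 9 of 10 genes were higher with CTC41.5G-EVs than with CTC41-EVs in platelets, Vamp7 by 0.00 after rounding, and Vamp8 was the exception at -0.33. Vamp3 differed most, at 0.55 or 1.46-fold, followed by Stxbp5 at 0.48, Snap23 at 0.37 and Stx11 at 0.36. The median of the 10 genes was 0.15 beside 0.01 over all genes above the floor. The platelet and megakaryocyte markers stood higher on the same array, with a list mean of 10.68 with CTC41.5G-EVs and 10.23 with CTC41-EVs, and their part in the differences of the 10 genes was not tested. The comparisons share arrays, so the low CTC41-EVs array enters the first and the last of them.

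In progenitors, 1 of 9 genes above the floor reached 1.5-fold in 1 of the 3 comparisons. Stx11 stood at 4.54 with CTC41.5G-EVs and 5.15 with CTC41-EVs, a log2 difference of -0.61 or 1.53-fold. The share of genes past 1.5-fold in that comparison was 1.47%, beside 2.23% for CTC41-EVs against PBS and 4.38% for CTC41.5G-EVs against PBS, where 0 of 9 reached it. Snap23 was 0.48 lower with CTC41.5G-EVs than with PBS (4.22 against 4.69), a value just under the floor. Vamp3 was higher with both kinds of EVs, by 0.33 with CTC41.5G-EVs and 0.40 with CTC41-EVs, against a PBS array under the floor at 4.16. Stx4a, Stxbp2, Unc13d and Vamp2 differed by at most 0.10 in every progenitor comparison.

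**Figure D3:**
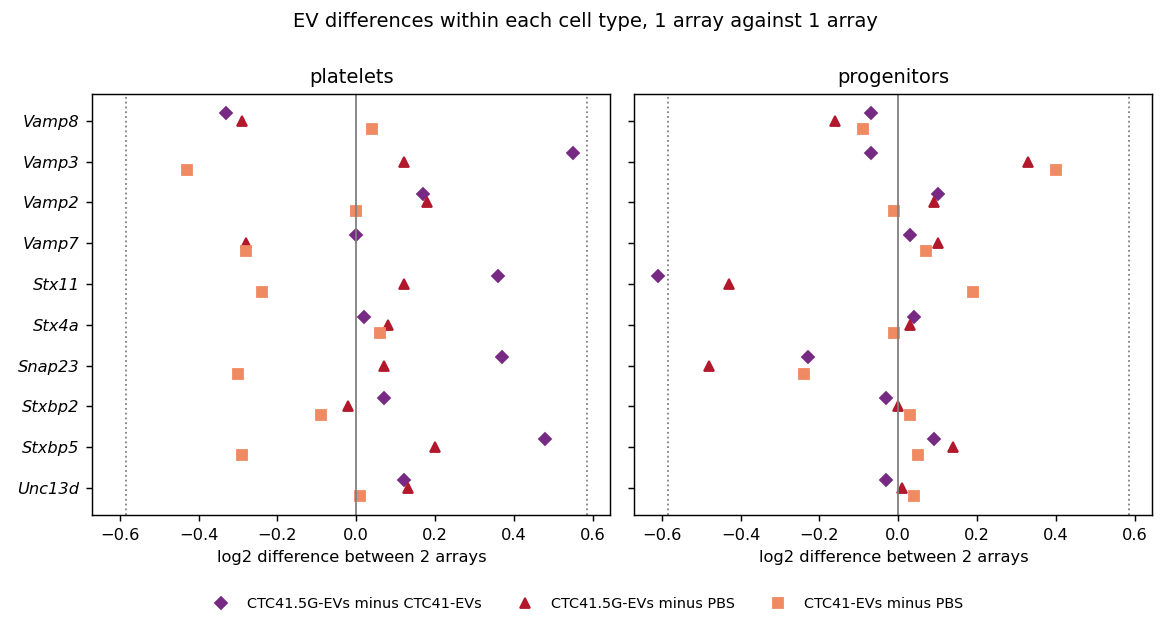
Log2 differences between 2 arrays of the same cell type for each gene, platelets left and progenitors right. Symbols mark the 3 comparisons, and dotted lines mark 1.5-fold in each direction. Only Stx11 in progenitors passes a line, at -0.61 for CTC41.5G-EVs minus CTC41-EVs.

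Averaged over both cell types, EV differences could be tested with limma, on 2 arrays per treatment. The model called 0 of 9 tested genes and 0 of 18875 genes in all (0%) for CTC41-EVs against PBS, for CTC41.5G-EVs against PBS and for CTC41.5G-EVs against CTC41-EVs. At an unadjusted p under 0.05 the counts over all genes were 577, 1171 and 1157, and 0 of the 9 secretion genes were among them in any comparison. The lowest unadjusted p was 0.0539, for Stxbp5 between the EV kinds (limma adjusted p = 0.805), with a log2 difference of 0.29 and SE 0.12. Such an average can hide shifts that go opposite ways, as the array values of Stx11 (0.36 in platelets and -0.61 in progenitors) and Snap23 (0.37 and -0.23) did between the EV kinds.

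The closest relatives of the 10 genes were mixed in the cell type comparison. Stx2, another plasma membrane syntaxin, averaged 5.82 in platelets and 5.17 in progenitors and was called higher by 0.65 (SE 0.09, limma adjusted p = 0.000581). Stx3 differed by 0.00 and lay under the floor. Snap29, another widely expressed SNAP, was called higher by 1.93 (SE 0.11), with 6.18 in platelets and 4.25 in progenitors, while the neuronal Snap25 differed by -0.23 and lay under the floor. Vamp1 differed by -0.47, past the adjusted p (0.00328 by limma) and short of 1.5-fold. Vamp5 differed by 0.24 and was not called, and Vamp4 by 0.23, untested. Stxbp3, a Munc18 protein that pairs with syntaxin 4, was under the floor on average, with 4.72 in platelets and 3.57 in progenitors, a difference of 1.16 as measured and 0.50 from the floor. Its annotated pseudogene Stxbp3-ps was called higher by 0.74 (SE 0.11). Unc13a and Unc13b, relatives of Unc13d, differed by -0.40 and -0.39, past the adjusted p (0.00804 and 0.0145 by limma) and short of 1.5-fold. The platelet mean of Unc13b lay under the floor, and its difference from the floor was -0.20. Stxbp5l differed by -0.12 from below the floor.

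Of 32 other SNAREs listed, 29 were measured and 22 tested. Platelets had 8 called higher and 0 lower, with a median of 0.31. Over all tested genes, 16.2% were called higher and 25.7% lower, with a median of -0.26. The largest were Stx7, an endosomal syntaxin, at 3.26 (SE 0.10), Snap29, and the Golgi SNAREs Gosr2 at 1.52 (SE 0.12) and Bet1l at 1.36 (SE 0.11). Of 23 measured Sec1/Munc18 proteins, Munc13 relatives, complexins and disassembly factors, 14 were tested, 1 was called higher and 2 lower, with a median of -0.25. Vps33a, of the endosomal HOPS complex, was higher by 0.78 (SE 0.13), and the 2 lower ones were Baiap3, a Munc13 relative (-0.77, SE 0.09), and the complexin Cplx4 (-0.69, SE 0.12), whose platelet mean lay under the floor and whose difference from the floor, -0.41, is short of 1.5-fold. Nsf and Napa, which take used SNARE bundles apart, differed by 0.54 and 0.45, short of 1.5-fold.

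Of 29 measured secretory Rabs, effectors and calcium sensors, 22 were tested, 5 were called higher and 5 lower, with a median of -0.39. These counts are not far from the shares over all tested genes, 16.2% higher and 25.7% lower. Rab27b, the granule Rab of platelets, stood at 7.23 ± 0.23 in platelets and 4.78 ± 0.10 in progenitors (SD, n = 3 each), and was higher by 2.45 (SE 0.14). Its effector Sytl4, or granuphilin, was higher by 1.59 (SE 0.15). Rab11a and Rab8b, Rabs of recycling and surface transport, differed by 3.89 and 3.73, or by 3.24 and 2.67 from the floor, since both lay under it in progenitors. Rab3a (-1.06, SE 0.12), Rab44 (-0.88, SE 0.12), Rph3al (-0.84, SE 0.09) and Sytl1 (-0.72, SE 0.10) were among those lower. Rab27a differed by 0.31 and was untested.

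Of 12 exocyst genes, members of the complex that ties vesicles to the plasma membrane and their relatives, 10 were tested. Of these, 2 were called higher, near the share of 16.2% over all tested genes, and 0 lower, beside 25.7%. Both called genes lay under the floor in progenitors. Exoc6 measured 7.73 in platelets and 3.76 in progenitors and differed by 3.97, or 3.50 from the floor, and its paralog Exoc6b by 0.81, or 0.44 from the floor, which is short of 1.5-fold. The other 8 tested differed by -0.40 to 0.24. Of 21 measured genes of secretion signalling, 20 were tested, 9 were called higher and 1 lower, with a median of 0.32. The protein kinase C genes Prkca and Prkcq were higher by 2.75 (SE 0.13) and 2.01 (SE 0.11), Rasgrp2, the exchange factor of Rap1, by 2.03 (SE 0.15), and the calcium channel gene Itpr2 by 0.96 (SE 0.10). Plcb2 was lower by a log2 difference of -0.70 (SE 0.09). Of 17 measured genes of neuronal exocytosis, 10 were tested, 0 were called higher and 1 lower, Rph3a at -0.67 (SE 0.09), with a median of -0.37. The genes called lower in these lists depended on scaling, as 0 were called lower after centring on the olfactory receptor genes, and Cplx4, Plcb2 and Rph3a then had differences just above 0.

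**Figure D4:**
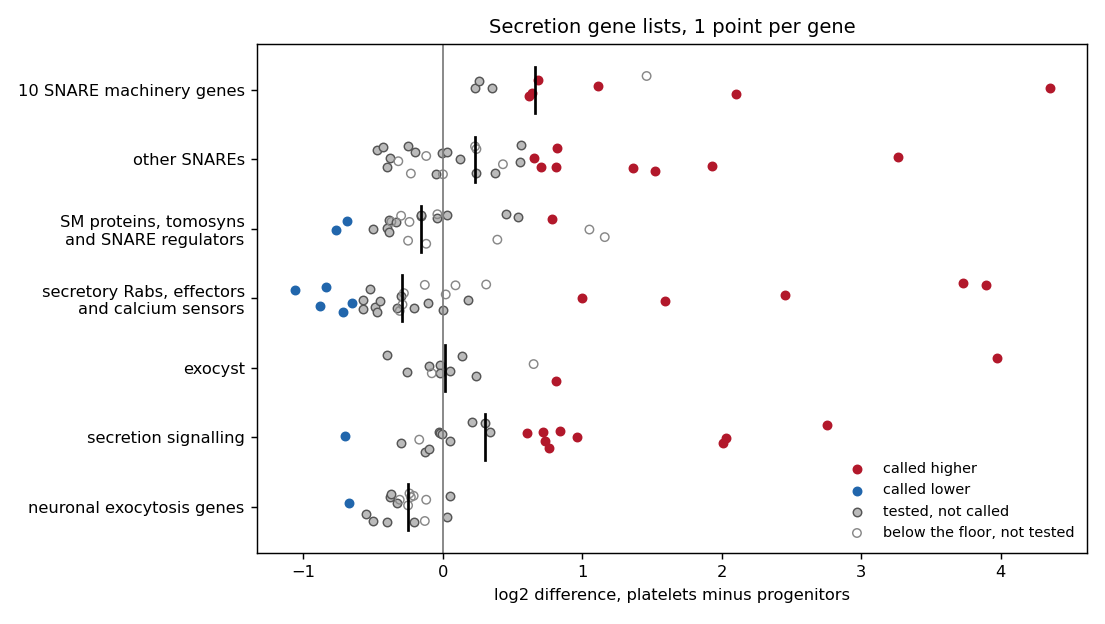
Log2 difference, platelets minus progenitors, for the 10 genes and for 6 lists of related secretion genes. Each point is a gene, coloured by its call, open where it lay below the floor, and the black bar is the median over all measured genes of the row. The neuronal row has no gene called higher, and the 10 genes have none called lower.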

How the data were processed

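RNA of 6 pooled mouse samples was measured on Clariom D Mouse arrays. The deposited values are log2 signals, made by the authors with Affymetrix Expression Console 1.4.1.46 per the submitters' processing notes, while the series' design text names MAS5.0. How the arrays were scaled to each other is therefore not settled, and no genome build is given in the sources used here. Arrays have no read depth, so precision is limited by their number. The labels' protocols say that pools were either used directly or depleted of other blood cells with beads, without saying which.

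Of 72688 probes, 30604 named 1 gene, 2146 named several and were left out, and 39938 listed none. Of the first, 22818 were found in RefSeq GRCm38.p6 through their Entrez identifier, and 827 symbols were updated. The probe with the highest mean stood for each of 355 genes with several. Groups were compared with limma 3.58.1 in R 4.3.3, with additive terms for cell type and treatment, 2 residual degrees of freedom, an intensity trend and Benjamini-Hochberg adjustment over 18875 genes. The residual mixes array noise with treatment effects that are unequal in the cell types. SDs are over 3 arrays that differ in treatment. Calls needed an adjusted p of at most 0.05 and 1.5-fold. Within a cell type, genes were counted past 1.5-fold if their mean over its 3 arrays reached 4.23, a floor chosen after the values were seen, as was the display of CG dinucleotides. The fit was tested on simulated data. Alternatives were 3 scalings, other floors, the mean of a gene's probes, no treatment term, no trend and each array left out. With 1 array left out, the other array of its treatment no longer informs the cell type difference. Leaving out either array of a treatment thus gives the same difference and is not a separate check. The genes and lists were chosen with earlier results of these data known. Named were the 10 genes, their nearest paralogs and, in each list, up to 4 called genes in each direction with the largest differences. Nsf, Napa, Rab27a, the pseudogenes, the markers under the floor and the called T and NK cell, monocyte and endothelial markers were named after their values were seen.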

Additional observations from a re-analysis of the deposited data

Results flagged for a closer look

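Stx11 differed in opposite directions between the EV kinds. CTC41.5G-EVs minus CTC41-EVs was 0.36 on the log2 scale in platelets and -0.61 in progenitors, 1 array against 1 in each cell type. The difference between these values was not tested.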

How the results depend on the processing

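Of the 10 genes, 6 were called higher. The count was 9 after centring on the median of all probes or on olfactory receptor genes, 3 with a floor at the 90th percentile, and 5 to 6 with 1 array left out. The genes called lower in platelets numbered 4854, and 2285 after quantile normalization, 1911 after median centring, 1033 after olfactory centring, 2356 with a floor at the 75th percentile and 685 at the 90th. The genes called higher in platelets numbered 3063, and 4673 after median centring, 7609 after olfactory centring and 1430 at the 90th percentile. Leaving out 1 array gave 2929 to 3137 higher and 4333 to 5181 lower.

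Among regulators (1 higher, 2 lower), 3 were higher after quantile normalization, after median centring and without a floor, 5 after olfactory centring and 0 at the 90th percentile. Those lower numbered 0 under each of the 3 scalings and at the 90th percentile, and 1 at the 75th. Other SNAREs called higher numbered 16 after olfactory centring and 3 at the 90th percentile. Rabs and effectors had 8 higher after olfactory centring and 2 at the 90th percentile, and 2, 1 and 0 lower after quantile, median and olfactory scaling and 0 at the 90th percentile. Exocyst genes had 8 higher after olfactory centring, 1 at the 75th percentile and 0 at the 90th. Signalling genes had 18 higher after olfactory centring and 4 at the 90th percentile, and neuronal genes 2 higher after olfactory centring. For both lists 0 were lower under each scaling and at the 90th percentile. Cplx4, Plcb2 and Rph3a reversed to 0.03, 0.02 and 0.05 after olfactory centring. With 1 array left out, lower calls ranged from 0 to 1 among other SNAREs (1 without either PBS array), 1 to 2 among regulators (1 without either CTC41.5G-EVs array) and 1 to 2 among neuronal genes (2 without either PBS or either CTC41-EVs array). With a floor at the 75th percentile in the cell type, added after seeing the data, 0 genes passed 1.5-fold between the EV kinds in progenitors, since Stx11 was under it. Higher floors test fewer genes, and the cause of the other shifts was not tested. The treatment term already matched the platelet and progenitor arrays of each treatment. No pairing beyond that was possible because the labels give no replicate numbers. With 1 pooled array a group, EV differences have no replicate error. Of 240 EV values of the 10 genes recomputed under the 3 scalings and the probe mean, 47 moved by more than the model's residual SD. All 47 were under a scaling, because each gene has 1 probe and its probe mean could not differ from the main value.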
